A study of Mus musculus with 18 samples.

Results

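The genes described here are 29 mouse genes of calcium transport and store-operated calcium entry, taken by symbol from 55401 genes that were counted in every library. They comprised 13 genes of the endoplasmic reticulum (ER) and Golgi store, 10 genes of the plasma membrane and its channel regulator, and 6 genes of mitochondria. All 29 symbols were found, and none was dropped, since each member reached at least 3 counts in at least 1 library. Ryr3, a ryanodine receptor, came closest to being dropped, with at most 3 counts in any library, and it was too low for every test below.

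RNA sequencing covered 18 libraries in 6 groups of 3, and every group, controls included, had been stimulated with LPS, the endotoxin of Gram-negative bacteria that macrophages sense through Toll-like receptors, at 5 ng/ml for 6 h. Mut-SMIM30-OE and Mut-Control were peritoneal macrophages of SMIM30-Mut mice that received a SMIM30 overexpression adenovirus or a control adenovirus 6 h after seeding and kept it for 24 h before LPS. Mut were peritoneal macrophages of SMIM30-Mut mice with no virus, and WT were the same cells of wild-type mice. IC-21-siSMIM30 and IC-21-siControl were cells of IC-21, an established mouse peritoneal macrophage line transformed with a viral oncogene, after 24 h with a SMIM30 siRNA or with the control that the sample titles call siControl. The strain label of all groups, the line included, was C57BL/6J. The sources used here do not describe the allele of the SMIM30-Mut mice, the dose or promoter of the adenovirus, the siRNA sequence, or the age and sex of the mice. The sources also do not say whether the 3 libraries of a group came from separate mice or cultures, so p-values measure the spread between these libraries, which may be technical.

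Calcium is kept low in the cytosol by pumps that push it into the ER, out of the cell or, through other carriers, into mitochondria. Inositol trisphosphate (IP3) receptors release it from the ER, the ER proteins STIM1 and STIM2 sense the emptied store, and they open ORAI channels in the plasma membrane so that calcium enters and the SERCA pumps refill the store. In macrophages these signals accompany phagocytosis, ATP sensing and cytokine production, and calcium entry drives the phosphatase calcineurin and its NFAT transcription factors.

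Libraries held 6855245 to 13456857 read pairs assigned to genes, and the spread within each group exceeded counting error. Levels below are CPM, the counts of a gene relative to the library's total, after TMM scaling, a correction for library composition, over all 18 libraries, and 3 counts in a library corresponded to 0.183 to 0.450 CPM. Smim30 is listed in the files as 2610001J05Rik, a match made here from general knowledge of the locus. It stood at 60.6, 62.1 and 65.5 CPM in Mut-SMIM30-OE and 53.98, 49.8 and 51.5 CPM in Mut-Control (log2 fold change 0.28, SE 0.06, edgeR adjusted p = 0.00521), a 1.21-fold rise. Smim30 was lower in Mut-Control than in Mut (log2 fold change -0.19, SE 0.08, edgeR adjusted p = 0.0418). Its mean was 62.7 CPM (SD 2.48) in Mut-SMIM30-OE and 57.5 CPM (SD 6.21) in Mut. How much RNA made from the virus is counted here is not known, so these levels do not measure the overexpression. Smim30 stood at 50.4, 61.2 and 60.99 CPM in Mut and 51.7, 60.1 and 60.03 CPM in WT (log2 fold change 0.01, SE 0.08, edgeR adjusted p = 0.966). The libraries of Mut and WT overlapped, and a count over exons checks no allele that keeps its RNA. It stood at 6.40, 8.16 and 8.51 CPM in IC-21-siSMIM30 and 15.8, 14.7 and 15.4 CPM in IC-21-siControl (log2 fold change -0.97, SE 0.12, edgeR adjusted p = 6.17e-08), without overlap. Ribosomal RNA genes held 0.399 to 1.03% of counts in Mut and 1.74 to 2.49% in WT, and 0.195 to 0.484% in the 12 libraries of the other 4 groups. The macrophage markers Adgre1, Csf1r, Cd68, Itgam, Mertk, Fcgr1 and Lyz2 were detected in all 6 groups, but not at like levels. These 7 markers summed to 1951 to 1986 CPM in IC-21-siControl and 12092 to 13423 CPM in WT. In that comparison 5 of the 7 were lower in the line and 1 was higher. Of 9 large peritoneal macrophage markers, Gata6, Timd4 and Prg4 had 0 counts in all IC-21 libraries. In IC-21-siControl against WT, 6 of the 8 tested were lower, and Garnl3 was higher. The sum was 190.4 to 212 CPM in IC-21-siControl, most of it Cd9, and 1250.4 to 1359 CPM in WT. In bulk RNA, fewer cells of a type and less RNA per cell cannot be told apart.

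Levels of different genes were compared per kilobase of exon. The length used takes in all annotated exons, which need not be the length of the expressed transcript, so orders are approximate. On this scale the SERCA2 pump gene Atp2a2 led the store members in IC-21-siControl with 63.98 ± 4.29 CPM per kb. It also led in WT with 83.3 ± 1.16 CPM per kb (SD, n = 3, as for all values in this form below). Atp2a3, the SERCA3 pump known from blood cells, came second in IC-21-siControl with 24.02 ± 0.195 CPM per kb. Saraf, which encodes an ER protein that turns store-operated entry off, came second in WT with 40.6 ± 2.95 CPM per kb and first in Mut-Control with 52.7 ± 2.29 CPM per kb, ahead of Atp2a2 with 44.97 ± 0.870 CPM per kb. The lowest store members in WT were Ryr1, at 0.542 ± 0.0164 CPM per kb, and Ryr3, at 0.00191 ± 0.00331 CPM per kb. In WT the neighbours Stim1 and Atp2a3 overlapped in level.

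At the plasma membrane, P2rx4, an ATP-gated cation channel, led in Mut-Control with 75.02 ± 0.295 CPM per kb and in WT with 62.1 ± 2.15 CPM per kb. In IC-21-siControl it came after Trpv2, at 13.9 ± 0.497 CPM per kb, and the first place was that of Atp2b1, the main plasma membrane calcium pump, at 21.2 ± 0.684 CPM per kb. Trpv2, a cation channel of macrophage phagocytosis, was second in these 3 groups, at 40.8 ± 0.951 CPM per kb in Mut-Control, 18.5 ± 0.650 in IC-21-siControl and 31.7 ± 1.24 in WT. Among mitochondrial members, Slc8b1, which encodes NCLX, the exchanger that trades matrix calcium for sodium, led in Mut-Control with 64.1 ± 0.787 CPM per kb and in WT with 40.8 ± 1.20 CPM per kb. Mcub, which encodes a pore subunit that dampens uptake, and Smdt1, a uniporter subunit, overlapped at the top in IC-21-siControl, with 31.5 ± 1.61 CPM per kb for Mcub and 31.4 ± 1.03 for Smdt1. Mcub stood at 30.4 ± 3.21 CPM per kb in WT, where it also overlapped Smdt1, at 27.6 ± 0.487 CPM per kb. The pore gene Mcu stood low in WT, at 6.20 ± 0.225 CPM per kb, and overlapped Letm1, an inner membrane cation exchanger, at 6.18 ± 0.436 CPM per kb. Undivided by length, Mcu and Mcub stood at 42.97 ± 1.56 and 40.1 ± 4.24 CPM in WT. The exonic lengths used for them were 6936 and 1318 bases.

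The make-up of 3 gene families differed between the groups. Atp2a3 made up 15.5 ± 0.405% of the 2 SERCA genes' level per kb in Mut-SMIM30-OE, 16.2 ± 0.102% in Mut-Control and 5.27 ± 0.565% in Mut. Its share was 27.3 ± 0.242% in IC-21-siSMIM30, 27.3 ± 1.39% in IC-21-siControl and 5.91 ± 0.0702% in WT. SERCA3 has a lower affinity for calcium than SERCA2, and its gene held the smallest shares in Mut and WT and the largest in the line. Itpr2 was the main IP3 receptor gene in Mut, at 57.6 ± 1.62% of the 3 genes, and in WT, at 58.2 ± 0.180%. Itpr3 led in the other groups, at 49.98 ± 1.61% in Mut-SMIM30-OE, 44.4 ± 2.63% in Mut-Control, 58.99 ± 0.809% in IC-21-siSMIM30 and 56.9 ± 0.315% in IC-21-siControl. Orai2 was likewise first of the 3 ORAI genes in Mut, at 40.3 ± 1.62%, and in WT, at 40.4 ± 3.17%. Orai3 was first in Mut-SMIM30-OE at 47.3 ± 1.74%, in Mut-Control at 46.6 ± 1.08%, in IC-21-siSMIM30 at 38.7 ± 1.43% and in IC-21-siControl at 39.9 ± 1.49%. These orders rest on dividing by the length of all annotated exons. Undivided, Orai2 stood above Orai3 in all 6 groups, with 47.5 ± 2.25 and 33.7 ± 0.716 CPM in Mut-Control. Itpr2 stood above Itpr3 in Mut-Control, at 57.6 ± 8.99 and 45.4 ± 4.43 CPM, and in both IC-21 groups. Which paralogue leads is therefore not settled. ORAI1 is the main store-operated pore in most cells, ORAI2 can lower the current of mixed channels, and ORAI3 also forms channels that do not need an empty store. Stim2, the more sensitive of the 2 store sensors, made up 66.5 ± 1.25% of the STIM genes in Mut-Control, 50.9 ± 2.82% in IC-21-siControl and 71.2 ± 1.84% in WT.

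**Figure D1:**
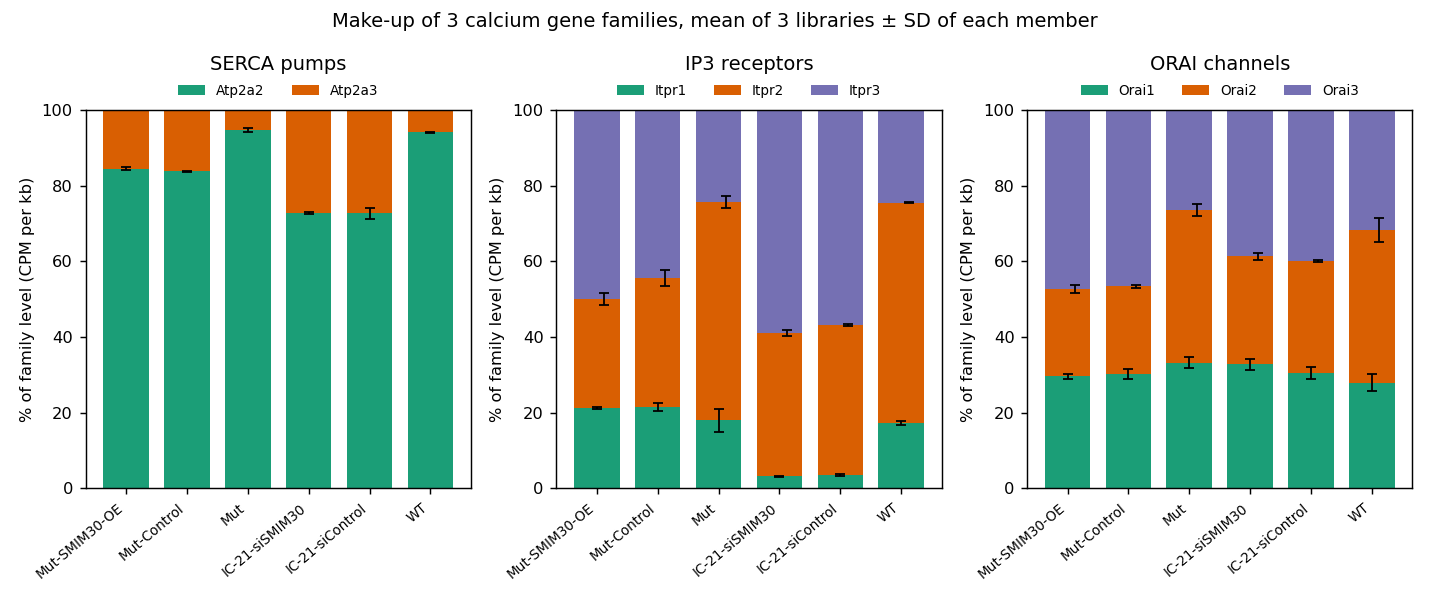
Stacked bars give the share (%) of each member in the summed level per kilobase of the SERCA, IP3 receptor and ORAI genes, as the mean of 3 libraries, and error bars are the SD of the share of the member below them. Itpr2 is the widest IP3 receptor segment in Mut and WT, and Itpr3 is the widest in the other 4 groups.

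The stretches before the start sites of the 3 ORAI genes and of Itpr3 are shown because these paralogues moved apart between groups, as the tests below give, and Itpr3 was the calcium gene that passed the test with the SMIM30 virus. The sequences are 250 bases upstream of the RefSeq start site on GRCm38.p6, written 5′ to 3′ on the gene's strand, with matches to kappaB (GGGNNNNNCC) and to the NFAT core (GGAAAA), on either strand, in capitals. Neighbouring matches that overlap share 1 run of capitals. Orai1 lies on the plus strand (chr5:123014824-123015073), Orai2 on the minus strand (chr5:136170657-136170906), Orai3 on the plus strand (chr7:127769565-127769814) and Itpr3 on the plus strand (chr17:27057054-27057303).
Orai1: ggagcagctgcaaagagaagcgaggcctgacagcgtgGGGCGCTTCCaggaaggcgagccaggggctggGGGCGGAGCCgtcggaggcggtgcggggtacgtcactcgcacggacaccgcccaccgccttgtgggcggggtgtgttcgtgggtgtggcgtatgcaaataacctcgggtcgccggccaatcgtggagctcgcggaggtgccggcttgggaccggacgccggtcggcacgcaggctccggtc
Orai2: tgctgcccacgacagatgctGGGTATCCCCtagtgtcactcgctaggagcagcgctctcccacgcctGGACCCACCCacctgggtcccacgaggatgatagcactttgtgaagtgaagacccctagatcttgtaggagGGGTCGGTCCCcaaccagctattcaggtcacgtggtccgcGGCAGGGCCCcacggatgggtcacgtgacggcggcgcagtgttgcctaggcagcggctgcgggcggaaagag
Orai3: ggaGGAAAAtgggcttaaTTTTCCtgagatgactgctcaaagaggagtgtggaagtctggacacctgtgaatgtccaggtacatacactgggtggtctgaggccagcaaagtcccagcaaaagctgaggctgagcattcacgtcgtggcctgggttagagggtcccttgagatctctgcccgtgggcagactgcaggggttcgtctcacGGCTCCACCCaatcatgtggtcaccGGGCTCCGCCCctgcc
Itpr3: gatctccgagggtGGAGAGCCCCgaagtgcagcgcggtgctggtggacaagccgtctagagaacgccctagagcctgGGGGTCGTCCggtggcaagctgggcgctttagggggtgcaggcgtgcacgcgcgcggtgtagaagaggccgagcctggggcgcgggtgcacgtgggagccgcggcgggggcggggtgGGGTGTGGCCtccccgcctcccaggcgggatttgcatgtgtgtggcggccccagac

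Windows of this kind were found for 24 of the 29 members, 28 windows in all, and no letters are given for the remaining 5. A kappaB match stood in 21 of the 28 member windows, or 75%, and in 45.8% of 32851 windows of all genes. The member windows were richer in G and C, with a median GC content of 62% against 52.4% over all windows, and kappaB is itself rich in G and C. The NFAT core stood in the windows of Mcub, Orai3 and Trpm2, against 20.4% of all windows. Among the 4 windows printed, Orai3 alone held the NFAT core, near its distal end, while all 4 held kappaB letters. The window of the paralogue Itpr2, not printed, held kappaB letters as well, so these do not set Itpr3 apart. Itpr1 had no window. The cAMP response element TGACGTCA stood in the window of Smdt1 alone, against 1.55% of all windows, and the ER stress element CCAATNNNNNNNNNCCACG stood in none of the 28 member windows, against 0.113% of all. A match is a run of letters and not a measured site.

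Mut against WT asked what the Smim30 mutation changed in LPS-treated macrophages. Of the 28 members tested, 2 were lower in Mut and none was higher, a share to set beside 6.3% of all 12500 genes tested, 3.68% higher and 2.62% lower (edgeR quasi-likelihood test, Benjamini-Hochberg adjusted p under 0.05). The groups did not overlap for 9 members, 3 higher and 6 lower in Mut, beside 21.1% of all genes. The 2 that passed were Slc8b1 in mitochondria and Orai3 at the plasma membrane, and both shifts were small. The median log2 fold change over the 28 members was -0.02, against -0.01 over all genes.

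Slc8b1 (NCLX) stood at 118, 115 and 125 CPM in Mut and 139, 146 and 139 CPM in WT. All 3 Mut libraries were below all 3 WT libraries. The gene fell in Mut (log2 fold change -0.24, SE 0.06, edgeR adjusted p = 0.00577), and it kept its call under 12 of 13 alternative settings. Without WT replicate 2, the highest of the WT libraries, its log2 fold change was -0.20 and the edgeR adjusted p was 0.0763.

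Orai3 stood at 28.6, 29.02 and 33.04 CPM in Mut and 35.6, 35.7 and 40.5 CPM in WT. The groups did not overlap, but the highest Mut library came within a few CPM of the lowest WT library. It fell in Mut by a margin close to the threshold (log2 fold change -0.30, SE 0.09, edgeR adjusted p = 0.0452). The call was lost under 8 of 13 alternatives, which were DESeq2 (adjusted p = 0.149), library totals as the scale (edgeR adjusted p = 0.0576), no filter on low counts (0.0558), and fits lacking 1 library, namely WT 1 (0.0713), WT 2 (0.0979), WT 3 (0.237), Mut 1 (0.153) and Mut 2 (0.164). Its paralogue Orai1 stood at 37.02, 39.03 and 46.1 CPM in Mut and 36.1, 31.99 and 37.7 CPM in WT, with groups that overlapped (log2 fold change 0.21, SE 0.09, edgeR adjusted p = 0.198). Orai2 averaged 130.4 ± 4.22 CPM in Mut and 135 ± 13.9 CPM in WT (edgeR adjusted p = 0.759).

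Trpm2, a channel opened by ADP-ribose and oxidative stress, had the widest difference of any member and missed the threshold. It stood at 1.95, 2.57 and 3.81 CPM in Mut and 5.08, 4.71 and 5.55 CPM in WT (log2 fold change -0.84, SE 0.26, edgeR adjusted p = 0.0549). All Mut libraries were below all WT libraries, at 34 to 51 counts per library in WT. Atp2b4, a minor plasma membrane pump in these cells, stood at 7.64, 5.91 and 6.55 CPM in Mut and 4.46, 4.99 and 4.24 CPM in WT and also missed it (log2 fold change 0.55, SE 0.21, edgeR adjusted p = 0.137).

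No store member passed in Mut against WT by edgeR. Stim2 was the 1 store member with an unadjusted p under 0.05, and DESeq2 called 0. The SERCA2 gene Atp2a2 stood at 481, 486 and 513 CPM in Mut and 509.9, 498 and 511 CPM in WT, with overlapping groups (log2 fold change -0.04, SE 0.05, edgeR adjusted p = 0.724). SERCA3 (Atp2a3) stood at 20.5, 26.1 and 24.9 CPM in Mut and 28.1, 27.3 and 27.5 CPM in WT (log2 fold change -0.21, SE 0.11, edgeR adjusted p = 0.308). Mut libraries of Atp2a3 were the lower ones, without passing. The store sensor Stim1 stood at 48.9, 57.1 and 59.04 CPM in Mut and 53.8, 60.7 and 57.9 CPM in WT, with overlap (log2 fold change -0.06, SE 0.08, edgeR adjusted p = 0.793). Stim2 averaged 77.8 ± 1.84 CPM in Mut and 70.5 ± 3.06 CPM in WT (edgeR adjusted p = 0.263), and Itpr1, Itpr2 and Itpr3 overlapped between the groups.

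In mitochondria, the uniporter pore Mcu stood at 37.02, 39.8 and 38.5 CPM in Mut and 44.6, 41.5 and 42.7 CPM in WT. Its groups did not overlap, yet it did not pass (log2 fold change -0.16, SE 0.08, edgeR adjusted p = 0.304). The gatekeeper Micu2 averaged 52.9 ± 1.18 CPM in Mut and 46.9 ± 3.40 CPM in WT (edgeR adjusted p = 0.218). Mcub and Smdt1 lay at positive log2 fold changes of 0.19 and 0.13, and Letm1 at -0.10, without passing.

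The lists of other pathway genes are again to be set beside 6.3% of all genes tested. In the calmodulin, calcineurin, NFAT and CaM kinase list, 1 of 18 tested genes was higher in Mut and none was lower. It was Rcan1, a feedback inhibitor of calcineurin, with 44.8 ± 0.371 CPM in Mut and 26.9 ± 2.13 CPM in WT (log2 fold change 0.73, SE 0.09, edgeR adjusted p = 1.14e-06). Of 25 tested genes in the list of other channels, exchangers and regulators, 3 were lower and 1 was higher. The lower ones were calcium channels of endosomes and lysosomes: Tpcn2, with 166 ± 4.65 CPM in Mut and 201 ± 7.003 CPM in WT (log2 fold change -0.28, SE 0.05, edgeR adjusted p = 7.12e-04), Mcoln2 (log2 fold change -0.23) and Mcoln1 (log2 fold change -0.21). The higher one was Tmem178, an ER protein that limits store-operated entry in mouse osteoclast precursors (log2 fold change 0.23, SE 0.06). None of 13 genes that make or remove IP3 passed (1 at unadjusted p under 0.05, 0 by DESeq2), and none of 14 calcium-binding proteins of the ER lumen (3 at unadjusted p under 0.05, 0 by DESeq2). Markers of other cells moved in the same comparison. The 5 dendritic cell markers summed to 29.2 to 35.7 CPM in Mut and 14.5 to 16.9 CPM in WT, with 2 of 4 tested higher and none at 0 counts, and the 6 B cell markers to 60.1 to 68.4 CPM in Mut and 88.7 to 94.0 CPM in WT, with 1 of 4 tested lower and none at 0 counts. Of 7 tested large peritoneal macrophage markers, Thbs1 (log2 fold change -0.69) and Prg4 (-0.66) were lower and Serpinb2 (0.31) was higher, and their 9 markers summed to 1221 to 1295 CPM in Mut and 1250.4 to 1359 CPM in WT, none at 0 counts. Of 7 macrophage markers, Lyz2 (-0.29) was lower and Fcgr1 (1.21) higher, with sums of 10486 to 11383 CPM in Mut and 12092 to 13423 CPM in WT. The part of these markers, and that of the ribosomal RNA share given above, in the results for Slc8b1 and Orai3 was not tested.

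**Figure D2:**
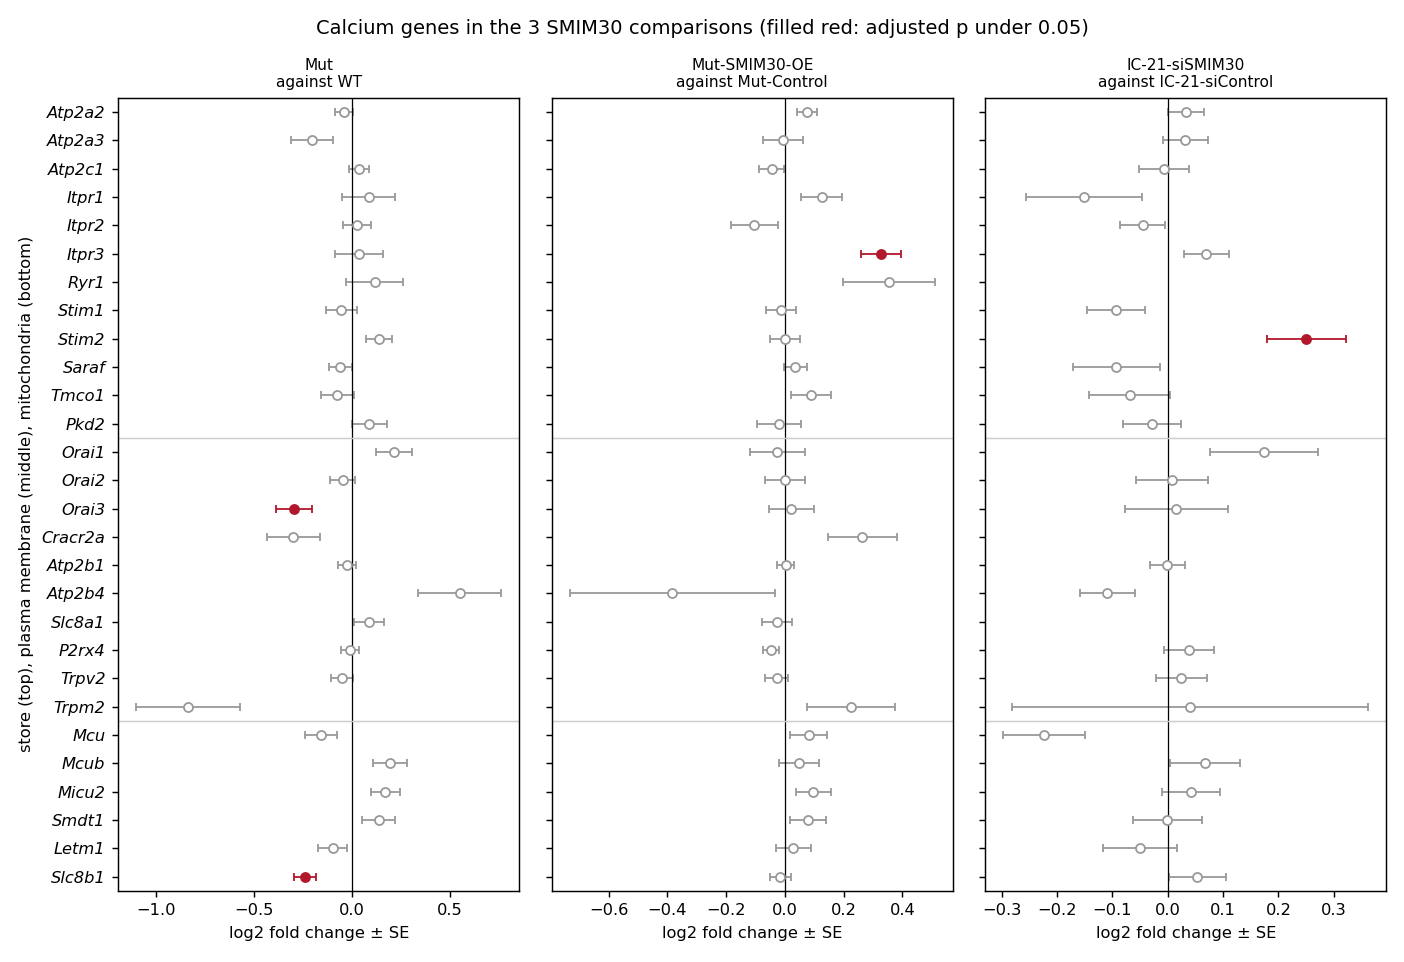
Points are log2 fold changes (x axis) of each tested member (y axis) with their SE in 3 comparisons that alter SMIM30, and filled red points passed at an edgeR adjusted p under 0.05. Slc8b1 and Orai3 are the red points left of 0 in Mut against WT, Itpr3 is the red point right of 0 with the virus, and Stim2 is the red point right of 0 with the siRNA.

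Mut-SMIM30-OE against Mut-Control asked what added SMIM30 changed in mutant macrophages, with only the small rise in counted Smim30 RNA given above. Of the 28 members tested, 1 was higher and none was lower, beside 1.44% of all 12701 genes tested, 0.591% higher and 0.85% lower. The groups did not overlap for 8 members, 6 higher and 2 lower, beside 15% of all genes. The member that passed was Itpr3, which encodes the IP3 receptor type with the lowest affinity for IP3, at 55.1, 54.7 and 60.1 CPM in Mut-SMIM30-OE and 40.4, 47.1 and 48.7 CPM in Mut-Control. All 3 libraries with the SMIM30 virus were above the 3 with the control virus. Itpr3 rose (log2 fold change 0.33, SE 0.07, edgeR adjusted p = 0.00254), and it held in 10 of 13 alternatives. It was lost in DESeq2 (adjusted p = 0.0521), without Mut-Control replicate 1, its lowest library (edgeR adjusted p = 0.134), and without Mut-SMIM30-OE replicate 3, its highest (edgeR adjusted p = 0.101).

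The other 2 IP3 receptor genes did not pass. Itpr1 averaged 48.6 ± 2.15 CPM in Mut-SMIM30-OE and 44.6 ± 3.85 CPM in Mut-Control (edgeR adjusted p = 0.553), and Itpr2 averaged 53.6 ± 2.73 and 57.6 ± 8.99 CPM in these groups (edgeR adjusted p = 0.727). Atp2a2 stood at 295, 285 and 286 CPM in Mut-SMIM30-OE and 279, 269 and 272 CPM in Mut-Control. The virus groups of Atp2a2 did not overlap, and the difference did not pass (log2 fold change 0.08, SE 0.03, edgeR adjusted p = 0.382). Ryr1, the muscle type of ryanodine receptor, stood at 9.73, 10.2 and 9.18 CPM in Mut-SMIM30-OE and 7.38, 6.28 and 9.12 CPM in Mut-Control (log2 fold change 0.35, SE 0.16, edgeR adjusted p = 0.377).

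Atp2a3 stood at 45.4, 46.7 and 45.7 CPM in Mut-SMIM30-OE and 47.2, 45.7 and 45.4 CPM in Mut-Control, and Stim1 at 88.5, 85.3 and 84.9 CPM and 83.8, 88.9 and 88.1 CPM in these groups. Both overlapped, with log2 fold changes of -0.01 for Atp2a3 and -0.01 for Stim1. At the plasma membrane no member passed by edgeR (1 at unadjusted p under 0.05, 0 by DESeq2), and none in mitochondria (0 at unadjusted p under 0.05, 0 by DESeq2). Orai1 stood at 22.7, 24.4 and 21.97 CPM in Mut-SMIM30-OE and 24.6, 21.8 and 23.8 CPM in Mut-Control, and Mcu at 54.98, 56.1 and 55.4 CPM and 50.5, 51.6 and 55.4 CPM in these groups. The 2 members lower in Mut than in WT showed no shift with the virus that passed. Slc8b1 averaged 220.0 ± 4.62 CPM in Mut-SMIM30-OE and 222 ± 2.73 CPM in Mut-Control (log2 fold change -0.02, SE 0.04, edgeR adjusted p = 0.937), and Orai3 averaged 34.3 ± 1.07 and 33.7 ± 0.716 CPM (edgeR adjusted p = 0.965).

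The lists are again to be set beside 1.44% of all genes tested. In them, 2 of 14 calcium-binding ER lumen proteins were higher with the SMIM30 virus and none was lower. They were the disulfide isomerase Pdia3, with 330.0 ± 0.939 CPM in Mut-SMIM30-OE and 298 ± 2.64 CPM in Mut-Control (log2 fold change 0.14, SE 0.03, edgeR adjusted p = 0.00478), and the chaperone Hspa5 (BiP), with 571 ± 13.7 CPM in Mut-SMIM30-OE and 524 ± 3.58 CPM in Mut-Control (log2 fold change 0.12, SE 0.03, edgeR adjusted p = 0.00670). DESeq2 called 1 gene of that list. No gene passed among 18 of the calmodulin, calcineurin, NFAT and CaM kinase list (0 at unadjusted p under 0.05, 0 by DESeq2), 13 that make or remove IP3 (2 and 0) and 24 other channels and regulators (6 and 0). Beside these results, the 9 fibroblast and mesothelial markers summed to 59.2 to 67.9 CPM in Mut-SMIM30-OE and 107 to 132 CPM in Mut-Control, all 6 tested markers were lower, and Msln and Krt19 were at 0 counts in Mut-SMIM30-OE. Of 7 macrophage markers, Itgam (log2 fold change 0.27) and Adgre1 (0.15) were higher and none was lower, with sums of 11223 to 11360 CPM in Mut-SMIM30-OE and 11352 to 11535 CPM in Mut-Control. The part of these markers in the rise of Itpr3 was not tested.

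IC-21-siSMIM30 against IC-21-siControl asked what a knockdown of SMIM30 changed in the IC-21 line. Of 25 members tested, 1 was higher and none was lower, beside 3.48% of all 13576 genes tested, 2.39% higher and 1.09% lower. The groups did not overlap for 6 members, 2 higher and 4 lower, beside 17.6% of all genes. Ryr1, Ryr3, Cracr2a and Slc8a1 were too low in the line to be tested. The gene that passed was Stim2, at 39.2, 39.6 and 40.9 CPM in IC-21-siSMIM30 and 28.8, 36.00 and 35.7 CPM in IC-21-siControl. The knockdown libraries lay close together above all control libraries, and siControl replicate 1 lay well below the other 2 controls. Stim2 rose (log2 fold change 0.25, SE 0.07, edgeR adjusted p = 0.0313), but the call was lost under 6 of 13 alternatives. These were DESeq2 (adjusted p = 0.0977) and the edgeR fits without siControl replicate 1 (adjusted p = 0.239), siControl replicate 2 (0.0609), siSMIM30 replicate 1 (0.0557), siSMIM30 replicate 2 (0.0884) or siSMIM30 replicate 3 (0.147).

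The paralogue Stim1 stood at 61.2, 60.6 and 59.3 CPM in IC-21-siSMIM30 and 63.7, 67.3 and 63.6 CPM in IC-21-siControl. Its knockdown libraries were the lower ones, and the difference did not pass (log2 fold change -0.09, SE 0.05, edgeR adjusted p = 0.432). Mcu stood at 31.9, 27.7 and 30.6 CPM in IC-21-siSMIM30 and 34.6, 35.3 and 36.2 CPM in IC-21-siControl, without overlap and without passing (log2 fold change -0.22, SE 0.07, edgeR adjusted p = 0.0825). Orai1 stood at 18.5, 18.7 and 17.5 CPM in IC-21-siSMIM30 and 16.6, 16.7 and 15.7 CPM in IC-21-siControl (log2 fold change 0.17, SE 0.10, edgeR adjusted p = 0.430).

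The SERCA genes overlapped between the knockdown and its control. Atp2a2 stood at 393, 393 and 398 CPM in IC-21-siSMIM30 and 394, 412 and 361 CPM in IC-21-siControl (log2 fold change 0.03, SE 0.03, edgeR adjusted p = 0.723), and Atp2a3 at 128, 129 and 128 CPM and 128, 126 and 127 CPM (log2 fold change 0.03, SE 0.04, edgeR adjusted p = 0.807). Orai3 averaged 20.1 ± 1.24 CPM in IC-21-siSMIM30 and 19.9 ± 1.58 CPM in IC-21-siControl, and Slc8b1 averaged 70.2 ± 0.839 and 67.8 ± 5.28 CPM in these groups. Neither passed, with edgeR adjusted p = 0.968 for Orai3 and 0.712 for Slc8b1. No plasma membrane member passed by edgeR (1 at unadjusted p under 0.05, 0 by DESeq2) and no mitochondrial member (1 and 0).

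The lists are again to be set beside 3.48% of all genes tested. Of 19 tested genes of the calmodulin, calcineurin, NFAT and CaM kinase list, 2 were higher and 3 were lower with the siRNA. The calcineurin catalytic subunit Ppp3ca stood lower, with 127 ± 1.79 CPM in IC-21-siSMIM30 and 143 ± 6.79 CPM in IC-21-siControl (log2 fold change -0.16, SE 0.04, edgeR adjusted p = 0.0107), as did its regulatory subunit Ppp3r1 (log2 fold change -0.18). Nfat5, a transcription factor of osmotic stress, was higher (log2 fold change 0.13), and so was the calcineurin inhibitor Rcan1, with 26.2 ± 1.20 CPM in IC-21-siSMIM30 and 21.6 ± 1.69 CPM in IC-21-siControl (log2 fold change 0.31, SE 0.09, edgeR adjusted p = 0.0277). DESeq2 called 3 genes of this list. Tmbim6, which encodes an ER protein that lets calcium leak from the store, was the 1 gene of 24 tested other channels and regulators that passed, with 431 ± 12.7 CPM in IC-21-siSMIM30 and 378 ± 28.5 CPM in IC-21-siControl (log2 fold change 0.20, SE 0.03, edgeR adjusted p = 7.81e-05). Nucb1 was lower among 12 tested ER lumen proteins (log2 fold change -0.11), a call that DESeq2 did not make, and none of 10 genes that make or remove IP3 passed (1 at unadjusted p under 0.05, 0 by DESeq2). Effects of the siRNA on other transcripts cannot be told apart from those of SMIM30 with the groups at hand.

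**Figure D3:**
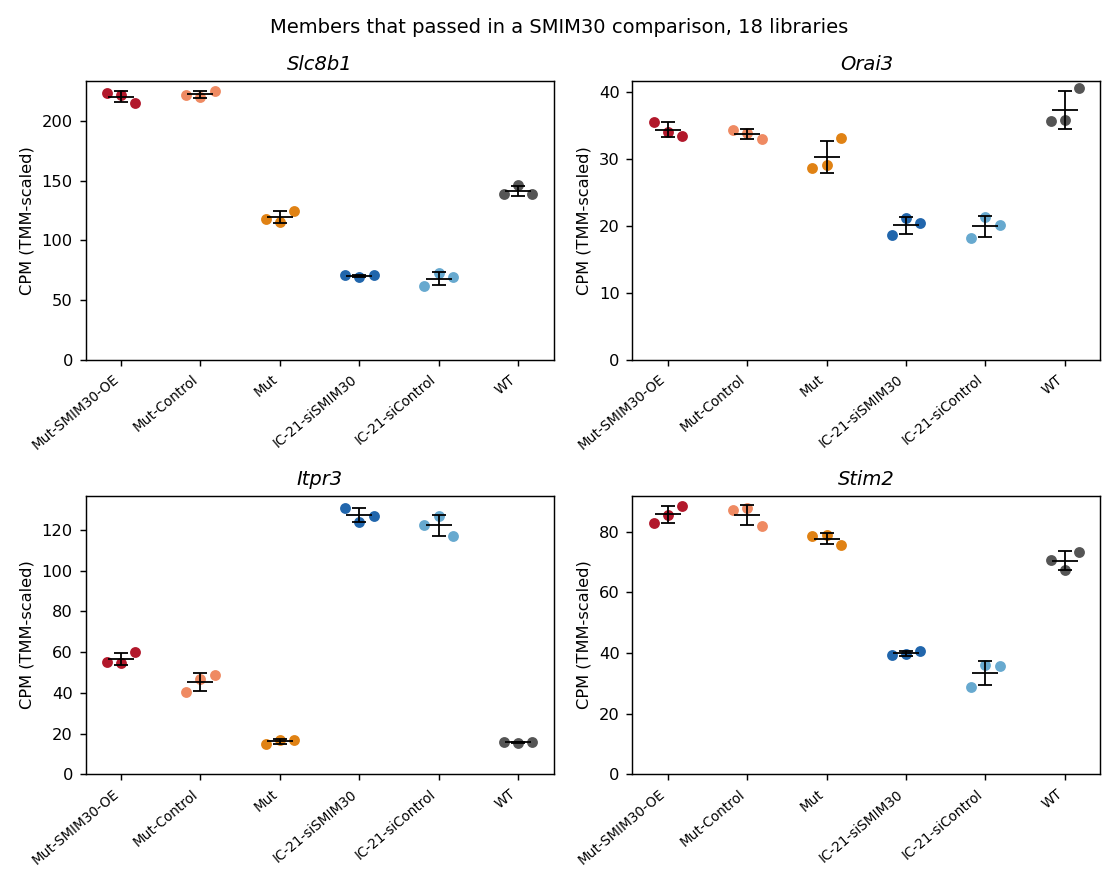
Each point is the level of one library in CPM after TMM scaling (y axis, from 0), by group (x axis), for the 4 members that passed in a comparison that alters SMIM30, and bars are the mean and SD of 3 libraries. Itpr3 stands at 40.4 to 48.7 CPM in Mut-Control, 14.8 to 16.9 CPM in Mut and 117 to 127 CPM in IC-21-siControl, and Slc8b1 is highest in the 2 virus groups.

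Whether the effects differed from each other was tested as an interaction. The effect in Mut against WT minus that of the siRNA in IC-21 passed for 2 of 28 members, beside 2.51% of all 14804 genes tested, 1.25% with a positive difference and 1.26% with a negative one. Ryr1, Cracr2a and Slc8a1 entered this test only through the primary cells. Without them and all other genes not tested in both comparisons, 2 of 25 members passed, beside 3.2% of 11404 genes, a count added after seeing the data. Slc8b1 differed by -0.29 on the log2 scale (SE 0.08, edgeR adjusted p = 0.0270), with effects of -0.24 in the mutant and 0.05 with the siRNA. Atp2b4 differed by 0.66 (SE 0.18, edgeR adjusted p = 0.0291), with effects of 0.55 in the mutant and -0.11 with the siRNA, neither of which passed alone. This SE was smaller than the 0.21 of Mut against WT fitted alone, since the interaction fit takes a common spread over both cell sources. Atp2b4 stood at 4.24 to 7.64 CPM in WT and Mut and at 69.0 to 83.3 CPM in the line. The precision of this call thus rests partly on the line, where the gene is high. The effect in Mut against WT minus that of the SMIM30 virus passed for 2 of 28 members, beside 3.84% of all 13422 genes tested, 2.31% positive and 1.53% negative. Trpm2 differed by -1.05 (SE 0.28, edgeR adjusted p = 0.0207), with effects of -0.84 in the mutant and 0.23 with the virus. Slc8b1 differed by -0.23 (SE 0.06, edgeR adjusted p = 0.0319), with -0.24 in the mutant and -0.02 with the virus. The virus adds SMIM30, so effects of opposite sign also count as a difference from it. The test does not tell whether the virus reversed a change of the mutant. Each of these 4 calls was lost without single libraries. Between the mutant and the siRNA, these were WT 1, WT 3, Mut 1, siControl 3 and siSMIM30 3 for Atp2b4 and WT 2, Mut 1, Mut 2 and siControl 1 for Slc8b1. Between the mutant and the virus, they were WT 3, Mut 1, Mut 2 and Mut-SMIM30-OE 3 for Trpm2 and WT 2, Mut 1, Mut 2, Mut-Control 1, Mut-Control 2, Mut-SMIM30-OE 1 and Mut-SMIM30-OE 2 for Slc8b1.

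The comparison of Mut-Control with Mut set 2 groups of mutant macrophages side by side in which the control virus, the longer culture and the part of the series coincide, so that these cannot be told apart. It also shares its libraries with the comparisons above. Of 28 members tested, 20 passed, 14 of them higher and 6 lower in Mut-Control, beside 53.6% of all 12798 genes tested, 27.1% higher and 26.5% lower. The groups did not overlap for 25 members, beside 59.1% of all genes. The SERCA2 pump, the Golgi pump, Orai1, Orai2 and Atp2b4 were lower, and SERCA3, 2 of the 3 IP3 receptors, Stim1 and the sodium-calcium exchangers were higher. The 10 widest shifts, named below, each passed under all 13 alternatives run. They were picked by size among the called members of these same libraries, so this is no added support. The other called members were not followed.

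In the store, Atp2a2 stood at 279, 269 and 272 CPM in Mut-Control and 481, 486 and 513 CPM in Mut (log2 change -0.88, SE 0.04, edgeR adjusted p = 9.50e-18). Atp2a3 went the other way, at 47.2, 45.7 and 45.4 CPM in Mut-Control and 20.5, 26.1 and 24.9 CPM in Mut (log2 change 0.91, SE 0.09, edgeR adjusted p = 3.53e-10). The groups of neither pump overlapped. Itpr3 stood at 40.4, 47.1 and 48.7 CPM in Mut-Control and 14.8, 16.9 and 16.7 CPM in Mut (log2 change 1.45, SE 0.10, edgeR adjusted p = 7.61e-14). Itpr1 stood at 43.1, 41.7 and 48.95 CPM in Mut-Control and 26.2, 28.4 and 18.7 CPM in Mut (log2 change 0.86, SE 0.14, edgeR adjusted p = 1.20e-04). Both rose without overlap, while Itpr2 overlapped and did not pass (edgeR adjusted p = 0.141). Stim1 rose to 83.8, 88.9 and 88.1 CPM in Mut-Control, against 48.9, 57.1 and 59.04 CPM in Mut (log2 change 0.62, SE 0.07, edgeR adjusted p = 4.01e-09), and the entry inhibitor Saraf rose with it (log2 fold change 0.41). Atp2c1 fell by a log2 fold change of -0.62 and Ryr1 by -0.78, and Stim2 and Pkd2, a cation channel of the ER and cilia, did not pass.

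At the plasma membrane, Orai2 stood at 50.05, 46.8 and 45.7 CPM in Mut-Control and 127, 129.7 and 135 CPM in Mut (log2 change -1.48, SE 0.06, edgeR adjusted p = 1.81e-19). Orai1 stood at 24.6, 21.8 and 23.8 CPM in Mut-Control and 37.02, 39.03 and 46.1 CPM in Mut (log2 change -0.83, SE 0.09, edgeR adjusted p = 5.01e-09). Orai3 averaged 33.7 ± 0.716 CPM in Mut-Control and 30.2 ± 2.44 CPM in Mut without passing (edgeR adjusted p = 0.254), while its share of the family, given above, was larger in Mut-Control. Atp2b4 stood at 1.63, 1.83 and 2.31 CPM in Mut-Control and 7.64, 5.91 and 6.55 CPM in Mut (log2 change -1.82, SE 0.25, edgeR adjusted p = 2.59e-07). Trpm2 stood at 9.20, 8.45 and 7.97 CPM in Mut-Control and 1.95, 2.57 and 3.81 CPM in Mut (log2 change 1.54, SE 0.22, edgeR adjusted p = 7.26e-07). The sodium-calcium exchanger of the plasma membrane, Slc8a1 (NCX1), stood at 85.9, 90.8 and 91.2 CPM in Mut-Control and 47.4, 48.9 and 49.7 CPM in Mut (log2 change 0.84, SE 0.06, edgeR adjusted p = 1.12e-12). No library of one group reached the range of the other for these 3 genes. Atp2b1, P2rx4 and Trpv2 rose by log2 fold changes of 0.30, 0.26 and 0.39, and Cracr2a, a calcium-binding regulator of ORAI1 and STIM1, did not pass.

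In mitochondria, Slc8b1 stood at 221, 219.9 and 225 CPM in Mut-Control and 118, 115 and 125 CPM in Mut (log2 change 0.87, SE 0.05, edgeR adjusted p = 5.88e-16). Mcu stood at 50.5, 51.6 and 55.4 CPM in Mut-Control and 37.02, 39.8 and 38.5 CPM in Mut (log2 change 0.42, SE 0.08, edgeR adjusted p = 2.69e-05), and the subunit Smdt1 rose by 0.23 on the log2 scale. Smdt1 shares 16.6% of its exonic bases with Pheta2 on the same strand, which makes its count less certain. Mcub, Micu2 and Letm1 did not pass.

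The lists of other pathway genes are to be set beside 53.6% of all genes tested, 27.1% higher and 26.5% lower. Of 14 calcium-binding proteins of the ER lumen, 9 were lower and 3 higher in Mut-Control. The lower ones included the chaperone Hspa5, with 524 ± 3.58 CPM in Mut-Control and 892 ± 28.2 CPM in Mut (log2 change -0.80, SE 0.04, edgeR adjusted p = 1.12e-17), the isomerase Pdia6 (log2 fold change -0.91), and calreticulin (Calr), the main calcium buffer of the ER, with 663 ± 14.9 CPM in Mut-Control and 1046 ± 49.8 CPM in Mut (log2 change -0.69, SE 0.04, edgeR adjusted p = 7.17e-16). Asph, whose locus encodes an aspartyl hydroxylase and the ER protein junctin, was higher (log2 fold change 1.82). Of 18 tested genes of the calmodulin, calcineurin, NFAT and CaM kinase list, 7 were higher and 8 lower, with Camk1d, a calcium-dependent kinase, at 94.2 ± 4.85 CPM in Mut-Control and 27.5 ± 4.17 CPM in Mut (log2 change 1.74, SE 0.08, edgeR adjusted p = 1.57e-17). Of 13 genes that make or remove IP3, 4 were higher and 6 lower, led by phospholipase Plcb2 (log2 fold change 1.40). Of 25 other channels and regulators, 12 were higher and 9 lower, with Tpcn1, an endolysosomal channel, higher (log2 fold change 2.74) and Tmem178 lower (log2 fold change -3.58). Markers of other cells differed here too. The 9 fibroblast and mesothelial markers summed to 107 to 132 CPM in Mut-Control and 245 to 290 CPM in Mut, all 6 tested were lower, and none was at 0 counts. The 5 dendritic cell markers summed to 7.97 to 8.11 CPM in Mut-Control and 29.2 to 35.7 CPM in Mut, with 2 of 3 tested lower and Flt3 at 0 counts in Mut-Control. The sum of 6 B cell markers was higher, at 97.6 to 112 CPM in Mut-Control and 60.1 to 68.4 CPM in Mut, Cd22 higher (log2 fold change 0.81) and Cd79a lower (-4.08). Of 7 tested large peritoneal macrophage markers, 4 were lower, among them Serpinb2 (-4.00) and Thbs1 (-1.90), and Icam2 was higher, with sums of 1012 to 1023 CPM in Mut-Control and 1221 to 1295 CPM in Mut. Of 7 macrophage markers, 3 were higher and 2 lower, with Fcgr1 at 1.83 and Adgre1 at -0.95 on the log2 scale. Neutrophil and mast cell markers were also lower, 1 of 1 and 2 of 3 tested. The part of these markers in the shifts of the calcium genes was not tested.

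**Figure D4:**
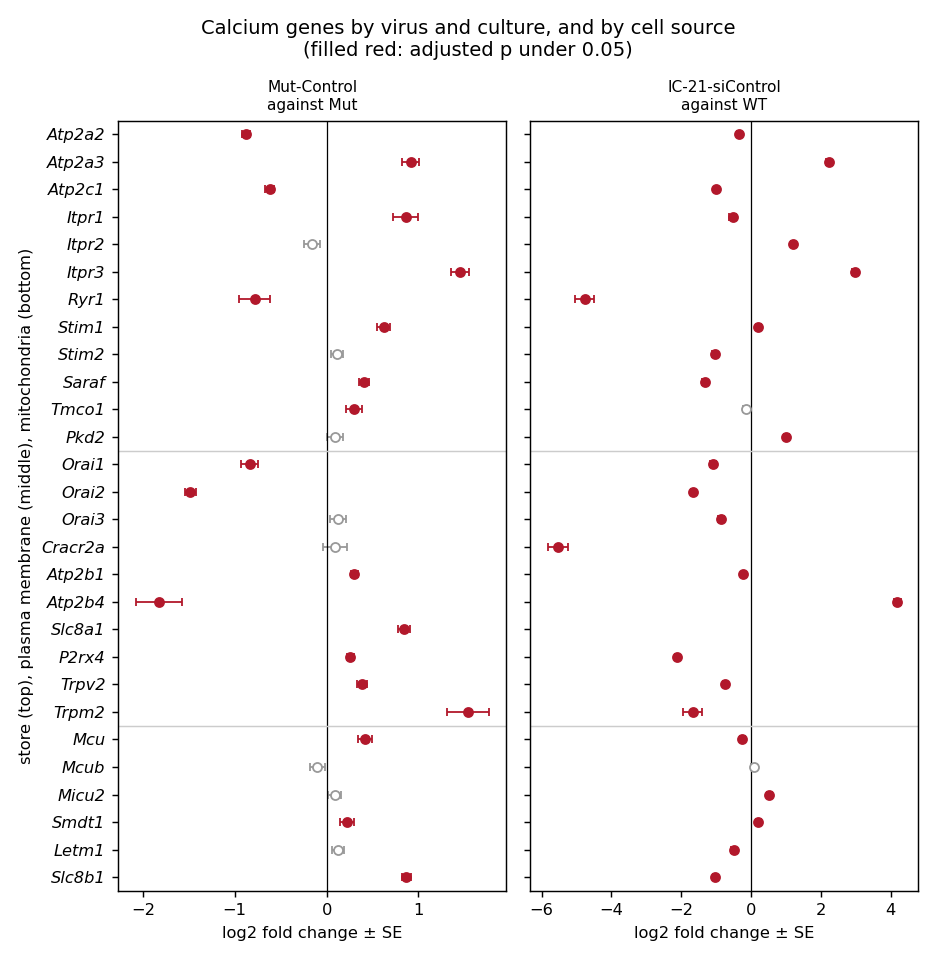
Points are log2 fold changes (x axis) of each tested member (y axis) with their SE, for Mut-Control against Mut and for IC-21-siControl against WT, and filled red points passed at an edgeR adjusted p under 0.05. Slc8a1 is left out of the right panel, since it had 0 counts in every IC-21 library, and Atp2a3 and Itpr3 are right of 0 in both panels.

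IC-21-siControl against WT described how the line differed from primary macrophages under LPS. Cell source, transfection and part of the series coincide there and cannot be told apart. Of 28 members tested, 26 passed, 8 higher and 18 lower in the line, beside 80.3% of all 14066 genes tested, 40.1% higher and 40.2% lower. Slc8a1, Cracr2a and Ryr1, counted among the lower ones, entered this test only through WT. The filter thus fixed their direction in advance, and their p-values are no support for it. The groups did not overlap for 27 members, beside 80.6% of all genes. With library totals in place of TMM scaling, 14 were higher and 11 lower, since that scale moved the median log2 fold change of all genes by 0.70. Directions below hold on both scales, except where stated.

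The widest loss was that of Slc8a1, with 0 counts in the 3 IC-21-siControl and the 3 IC-21-siSMIM30 libraries and 44.6, 42.9 and 49.7 CPM in WT. Against 3 counts per library, its level was at least 149-fold lower in IC-21-siControl than in WT after TMM scaling, and at least 87.9-fold lower on library totals. Cracr2a stood at 0.102, 0.122 and 0.737 CPM in IC-21-siControl and 16.5, 13.8 and 15.3 CPM in WT (log2 fold change -5.52, SE 0.29, edgeR adjusted p = 4.56e-21). Ryr1 stood at 0.511, 0.550 and 0.164 CPM in IC-21-siControl and 12.03, 12.05 and 11.4 CPM in WT (log2 fold change -4.76, SE 0.28, edgeR adjusted p = 1.48e-20). These levels rest on 1, 2 and 9 counts of Cracr2a and on 5, 9 and 2 counts of Ryr1 in the IC-21-siControl libraries, so their fold changes are imprecise. Cracr2a shares 8.49% of its exonic bases with Gm43634 on the same strand.

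The gain was widest for Atp2b4 (PMCA4), at 78.9, 81.4 and 83.3 CPM in IC-21-siControl and 4.46, 4.99 and 4.24 CPM in WT (log2 fold change 4.19, SE 0.10, edgeR adjusted p = 1.21e-35). It made up 23.8 ± 0.879% of the 2 plasma membrane pump genes' level per kb in IC-21-siControl and 1.45 ± 0.176% in WT. Itpr3 stood at 123, 127 and 117 CPM in IC-21-siControl and 15.9, 15.5 and 16.1 CPM in WT (log2 fold change 2.98, SE 0.07, edgeR adjusted p = 9.14e-36). Atp2a3 stood at 128, 126 and 127 CPM in IC-21-siControl and 28.1, 27.3 and 27.5 CPM in WT (log2 fold change 2.23, SE 0.06, edgeR adjusted p = 1.06e-32). All 3 genes were several times higher in every library of the line. Itpr2 also rose (log2 fold change 1.21), as did Pkd2 (1.01), Micu2 (0.52), Smdt1 (0.21) and Stim1 (0.21).

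P2rx4 stood at 97.3, 101 and 94.2 CPM in IC-21-siControl and 421, 436 and 451 CPM in WT (log2 fold change -2.13, SE 0.05, edgeR adjusted p = 7.31e-38). Orai2 stood at 39.9, 43.3 and 42.1 CPM in IC-21-siControl and 119, 146 and 140.2 CPM in WT (log2 fold change -1.66, SE 0.06, edgeR adjusted p = 2.38e-26). Saraf stood at 51.96, 47.99 and 41.3 CPM in IC-21-siControl and 113, 118 and 129.9 CPM in WT (log2 fold change -1.33, SE 0.06, edgeR adjusted p = 5.21e-22). No library of the line reached the WT range for any of these 3. Trpm2 stood at 1.94, 1.53 and 1.31 CPM in IC-21-siControl and 5.08, 4.71 and 5.55 CPM in WT (log2 fold change -1.67, SE 0.26, edgeR adjusted p = 1.47e-07). Orai1, Orai3, Stim2, Atp2c1 and Slc8b1 fell by log2 fold changes of -1.08, -0.87, -1.03, -0.99 and -1.02, and Trpv2 by -0.75. On library totals, Orai3 lay at -0.16 and Trpv2 at -0.04 without passing (edgeR adjusted p = 0.0819 and 0.443).

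For 6 members the direction depended on the scale. Atp2a2 was lower in the line after TMM scaling (log2 fold change -0.35, edgeR adjusted p = 1.37e-09) and higher on library totals (0.36, edgeR adjusted p = 1.17e-09). Atp2b1, Mcu and Letm1 likewise passed as lower after TMM scaling, at -0.22, -0.25 and -0.50, and as higher on library totals, at 0.48, 0.45 and 0.20. Itpr1 passed as lower after TMM scaling (-0.52) and lay at 0.18 on library totals without passing. Tmco1, a calcium leak channel of the ER, lay at -0.14 after TMM scaling without passing and was higher on library totals at 0.56. Mcub overlapped between the groups and did not pass after TMM scaling (log2 fold change 0.08, SE 0.08, edgeR adjusted p = 0.323), and it was higher on library totals at 0.79.

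**Figure D5:**
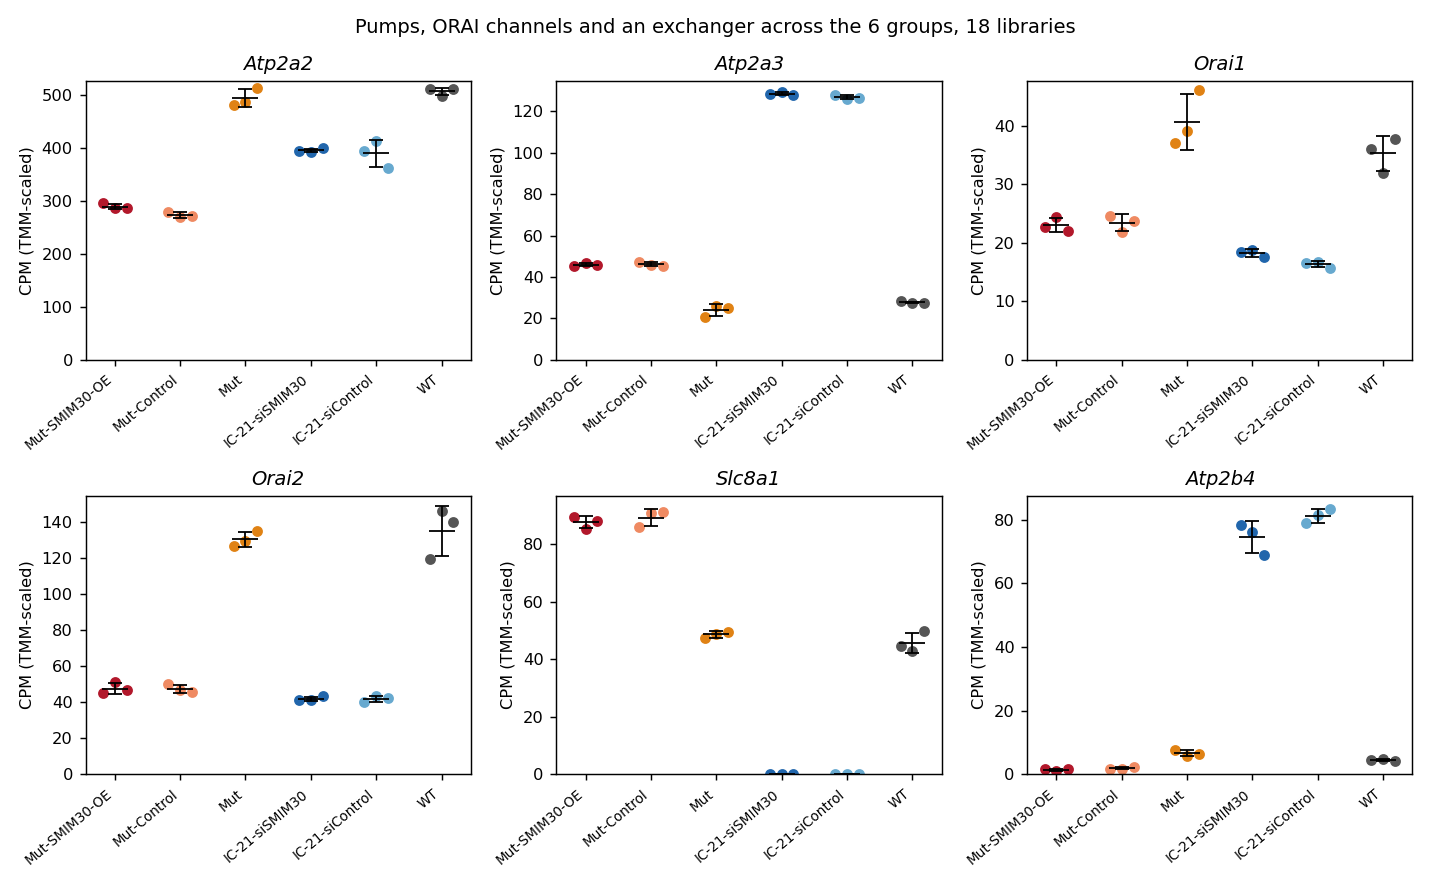
Each point is the level of one library in CPM after TMM scaling (y axis, from 0), by group (x axis), for SERCA2 (Atp2a2), SERCA3 (Atp2a3), Orai1, Orai2, Slc8a1 and Atp2b4, and bars are the mean and SD of 3 libraries. Slc8a1 is at 0 in all 6 IC-21 libraries, where Atp2b4 stands at 69.0 to 83.3 CPM.

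The lists of other pathway genes are to be set beside 80.3% of all genes tested, 40.1% higher and 40.2% lower. Of the genes that make or remove IP3, 10 of 13 were lower in the line and 1 was higher. Itpkb, a kinase that removes IP3, stood at 32.2 ± 3.30 CPM in IC-21-siControl and 156 ± 1.40 CPM in WT (log2 fold change -2.24, SE 0.06, edgeR adjusted p = 1.46e-33), Gnaq, the G protein subunit that activates phospholipase C beta, was lower (log2 fold change -1.20), and Plcg1, the phospholipase of tyrosine kinase receptors, was higher (log2 fold change 1.58). Of 14 ER lumen proteins, 6 were lower, among them Calr, with 294 ± 8.72 CPM in IC-21-siControl and 1055 ± 58.2 CPM in WT (log2 fold change -1.81, SE 0.05, edgeR adjusted p = 5.68e-35), and Rcn1, with 0 counts in IC-21-siControl and 32.01 ± 3.13 CPM in WT. The same list had 4 higher genes, led by Asph (log2 fold change 2.09). Of 25 other channels and regulators, 18 were lower and 4 higher. Tmem178 had 0 counts in IC-21-siControl and averaged 136 ± 5.78 CPM in WT, and Esyt2, which tethers the ER to the plasma membrane, was higher (log2 fold change 1.73). Of 19 tested genes of the calmodulin, calcineurin, NFAT and CaM kinase list, 9 were higher and 9 lower, with Nfatc2 at 29.8 ± 2.07 CPM in IC-21-siControl and 5.04 ± 0.577 CPM in WT (log2 fold change 2.59, SE 0.13, edgeR adjusted p = 4.00e-23). Directions of the lists' counts are those after TMM scaling. The fibroblast and mesothelial markers summed to 0.0818 to 0.205 CPM in IC-21-siControl and 272 to 299 CPM in WT, with Col1a2, Dcn, Sparc, Pdgfra, Msln and Krt19 at 0 counts in IC-21-siControl and all 6 tested lower. The part of such cells in the WT levels of the calcium genes was not tested.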

How the data were processed

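The authors deposited 1 table of read-pair counts per library, made with featureCounts 2.0.3 on GENCODE M25 per the file headers, after fastp, FastQC and HISAT2 per the submitters' processing notes. Counts were not normalized, and gene IDs were paired with symbols in 55141 of 55401 genes. The members and the gene lists were chosen with earlier results of these data known. Levels are CPM after TMM scaling over 18 libraries (R 4.3.3, edgeR 4.0.16, limma 3.58.1). Each comparison was fitted with edgeR's quasi-likelihood test on its own libraries, after TMM scaling and edgeR's filterByExpr, and p-values were adjusted over all genes tested by Benjamini-Hochberg (threshold 0.05). Interactions were fitted on the libraries of both comparisons. Alternatives were DESeq2 1.42.0, RLE scaling, library totals, the unfiltered table, a floor of 1 CPM in 3 libraries, a fit of all 18 libraries, a replicate block and leaving out each library. Members that passed are named with values, up to the 10 with the widest change per comparison, together with Atp2a2, Atp2a3, Stim1, Orai1 and Mcu, and up to 4 genes per other list by smallest adjusted p. Scripts were tested on simulated counts. Promoter windows come from RefSeq on GRCm38.p6. Counts depend on strand-specific assignment, and reads shared by overlapping genes are not resolved here.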

Additional observations from a re-analysis of the deposited data

Results flagged for a closer look

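The effect of the mutation differed from another SMIM30 effect, by an interaction test, for 3 members. The siRNA lowered the count of Smim30, and the SMIM30 virus, meant to add it, raised that count slightly against the control virus. A difference from the virus effect thus also arises where the signs are opposite. Such a difference does not tell whether the virus reversed a change. For Atp2b4, the effect in Mut against WT minus that in IC-21-siSMIM30 against IC-21-siControl was 0.66 on the log2 scale (edgeR adjusted p = 0.0291). Its spread came partly from the line, where the gene is high, as given above. Without 1 of the 5 libraries named with it above, the edgeR adjusted p lay at 0.0664 to 0.123. For Slc8b1, the same difference was -0.29 (edgeR adjusted p = 0.0270), and the edgeR adjusted p was 0.0637 with no filter on low counts and 0.0552 to 0.0862 without 1 of the 4 libraries named with it.

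For Trpm2, the effect in Mut against WT minus that in Mut-SMIM30-OE against Mut-Control was -1.05 (edgeR adjusted p = 0.0207), and 0.0647 to 0.0890 without 1 of the 4 libraries named with it. For Slc8b1, this difference was -0.23 (edgeR adjusted p = 0.0319), and the call was lost in 9 of 19 alternatives, with adjusted p between 0.0607 and 0.119.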

How the results depend on the processing

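The called members named in each comparison kept the direction of their fold changes under the alternatives run. Other members were not followed under each alternative. Among them, Atp2a2, Atp2b1, Mcu, Letm1, Itpr1 and Tmco1 reversed on library totals in IC-21-siControl against WT, as given above, and all of these but Tmco1 were called after TMM scaling. In Mut against WT, the count of members called was 1 on library totals, 1 by DESeq2 and 4 in the fit of all 18 libraries, and 0 to 3 without single libraries. The count of genes called was 1198 in the fit of all 18 libraries and 469 to 957 without single libraries, lowest without Mut 2. With the SMIM30 virus, 0 members were called by DESeq2 and 0 to 1 without single libraries, and genes numbered 68 by DESeq2, 87 in the fit of all 18 libraries and 66 to 453 without single libraries (82 without Mut-Control 1, 453 without Mut-Control 3, 106 without Mut-SMIM30-OE 2 and 66 without Mut-SMIM30-OE 3). With the siRNA, 0 members were called by DESeq2 and 0 to 1 without single libraries, and genes numbered 296, 263 and 309 to 422 in the same order of settings, lowest without siControl 2. Between the mutant and the siRNA, 1 member was called with no filter and 0 to 2 without single libraries (genes 267 to 571, highest without Mut 3). Between the mutant and the virus, 1 was called with no filter, 1 by DESeq2 and 0 to 2 without single libraries (genes 350 to 747). Counted over genes tested in both comparisons, a restriction added after seeing the data, the interactions called 365 and 502 genes and 2 members each. Without single libraries, Mut-Control against Mut gave 19 to 21 members (genes 6274 to 6666) and IC-21-siControl against WT gave 25 to 26 (genes 11075 to 11438). On library totals, the genes called split into 269 higher and 226 lower with the siRNA, against 324 and 148 after TMM scaling. They split into 9172 and 3039 for IC-21-siControl against WT, against 5645 and 5654. For the mutant minus the siRNA they split into 256 and 159, against 185 and 187. Same-numbered libraries shared only a number, with correlations of their deviations of -0.129 to 0.091. With the replicate block, the 5 comparisons called 3, 1, 1, 20 and 26 members and the 2 interactions 2 each, with 783, 255, 546, 6688 and 11191 genes and, for the interactions, 415 and 490. With 3 libraries a group, small shifts such as those of Orai3 and Stim2 lie at the limit of what the spread between libraries allows.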
